A study of Mus musculus with 9 samples.

Results

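The genes described here were 37 genes of macrophages, neutrophils and dendritic cells, the myeloid cells that enter tumors from the blood. They were taken from a table of 35275 genes by matching Ensembl identifiers to the listed mouse symbols, and all 37 were found. RNA came from 9 mammary tumors of Brca1Co/Co;MMTV-Cre;p53+/- mice, in which Cre under the MMTV promoter deletes *Brca1* in mammary epithelium and 1 p53 allele is missing in every cell. All groups shared this genotype, and no wild-type or untreated tumor was included. There were 3 tumors from mice given saline, 3 from mice given free Talazoparib intravenously (i.v. TLZ) and 3 from mice given NanoTLZ, a nano-liposome carrying Talazoparib. No tumor given empty nano-liposomes was included, so effects of the carrier and of the drug cannot be told apart in NanoTLZ. Talazoparib is an inhibitor of PARP, an enzyme of DNA break repair. Both treated groups received 5 doses of 0.33 mg/kg at 3 doses per week, starting when a tumor measured 4-5 mm across. The ages of the mice were not given in the sources used here. Each tumor was 1 replicate, so the p-values measure the spread between these tumors. The saline tumors were A3673, A3685 and A3688, the i.v. TLZ tumors B3638, B3684 and B3700, and the NanoTLZ tumors C3519, C3669 and C3698.

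Macrophages arise from monocytes and embryonic precursors, depend on the growth factor CSF1 and its receptor CSF1R, and engulf dying cells through receptors such as MERTK. Neutrophils are short-lived granulocytes that carry the calcium-binding proteins S100A8 and S100A9. Dendritic cells present antigen to T cells and depend on FLT3, and those marked by CLEC9A take up material from dead cells. In mammary tumors macrophages are often the most abundant leukocytes. The RNA was from whole tumors, so fewer cells of a type and less RNA per cell cannot be told apart.

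The transcription factor PU.1, encoded by *Spi1*, binds sequences with the core GAGGAA in many myeloid genes. The letters GGAA within it are shared by the whole ETS family. RefSeq promoter windows of GRCm38.p6, from 250 bases before to 50 bases after a start, were found for 27 of the 37 genes. GAGGAA or its reverse complement occurred in 19 of these 27 genes (70.4%), against 31.3% of 27025 genes with a window. Promoters of 4 genes on which the results turn are shown as the 250 bases before the start, with each match to the core in capitals. *C1qb* and *C1qc* encode chains of the complement protein C1q, whose levels moved together across tumors. *Mertk* and *Lyz2* had the smallest p-values of the tested genes of the list against saline. The windows lie at chr4:136886201-136886450 (minus strand), chr4:136892915-136893164 (minus strand), chr2:128698665-128698914 (plus strand) and chr10:117282273-117282522 (minus strand).
C1qb: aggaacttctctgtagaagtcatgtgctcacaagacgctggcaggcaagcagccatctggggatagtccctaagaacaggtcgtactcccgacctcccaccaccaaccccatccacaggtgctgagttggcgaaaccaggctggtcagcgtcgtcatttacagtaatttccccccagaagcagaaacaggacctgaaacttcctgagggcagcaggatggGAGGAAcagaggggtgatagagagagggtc
C1qc: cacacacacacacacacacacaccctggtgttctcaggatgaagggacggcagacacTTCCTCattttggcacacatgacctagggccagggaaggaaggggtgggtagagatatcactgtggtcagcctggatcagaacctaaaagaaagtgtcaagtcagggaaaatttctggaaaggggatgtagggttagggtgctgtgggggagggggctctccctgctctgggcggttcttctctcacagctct
Mertk: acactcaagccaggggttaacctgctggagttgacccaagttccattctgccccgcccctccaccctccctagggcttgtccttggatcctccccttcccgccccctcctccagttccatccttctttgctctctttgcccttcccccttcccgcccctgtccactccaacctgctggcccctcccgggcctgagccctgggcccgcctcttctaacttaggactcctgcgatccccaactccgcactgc
Lyz2: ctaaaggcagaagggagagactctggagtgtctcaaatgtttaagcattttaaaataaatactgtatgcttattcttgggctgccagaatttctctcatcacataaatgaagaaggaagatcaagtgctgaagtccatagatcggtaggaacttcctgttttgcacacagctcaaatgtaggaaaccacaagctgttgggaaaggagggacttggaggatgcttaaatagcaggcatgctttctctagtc
*C1qb* held 1 match on the strand of the gene and *C1qc* 1 match on the other strand. The *Mertk* and *Lyz2* windows held no GAGGAA on either strand. A match is a run of letters and not a measured binding site.

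The counts of a tumor summed to 17538380 at the lowest and 21194980 at the highest. Levels are given as CPM, counts scaled to a common library size after TMM normalization, and 15821 genes passed the low-count filter and were tested. *Ly6g*, which encodes a surface antigen of neutrophils, did not pass it, with 0 to 18 counts per tumor, and the other 36 genes were tested. Saline tumor A3688 stood apart from the rest, with a mean Spearman correlation across genes of 0.867 with the other 8 tumors, against 0.916 to 0.947 for each of the others. Genes are not independent replicates in such a correlation. A3688 also held the most skeletal muscle RNA. The sum of 5 muscle markers was 20.0 to 618 CPM in saline tumors and at most 3.90 CPM in treated tumors. Its part in the results below was not tested.

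No myeloid gene passed the test in any comparison at an adjusted p under 0.05 in edgeR's quasi-likelihood test with Benjamini-Hochberg adjustment, and none did in DESeq2. The shares of all tested genes that passed in edgeR were 0.00632% for NanoTLZ against saline, 0% for i.v. TLZ against saline, 0% for NanoTLZ against i.v. TLZ and 0.0190% for the mean of both treated groups against saline. Most of the 36 genes had a fold change above 0 after NanoTLZ. Against saline this held for 33 of 36 after NanoTLZ, where 43.9% of all tested genes lay above 0, with a median log2 fold change of 0.91 against -0.09 over all genes. After i.v. TLZ it held for 26 of 36, where 47.6% of all genes lay above 0, with a median of 0.31 against -0.03. Both comparisons used the same 3 saline tumors. The genes were measured in the same tumors and varied together, so counts of genes are not counts of independent results. Between the treatments, 32 of 36 genes were above 0 in NanoTLZ relative to i.v. TLZ, where 45.6% of all genes were, with a median of 0.56 against -0.04. For the mean of both treated groups, 32 of 36 genes were above 0, where 46.0% of all genes were, with a median of 0.62 against -0.06.

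At an unadjusted p under 0.05, edgeR gave 7 genes higher after NanoTLZ than in saline, where 3.51% of all tested genes were. They were *Mertk*, *Lyz2*, *Cybb*, *Cd68*, *Apoe*, *Trem2* and *Mrc1*. DESeq2 fitted to all 9 tumors gave 11 genes in that comparison, counted in either direction and with *Ly6g* included. Only *Mertk* was higher by this measure after i.v. TLZ, where 4.91% of all genes were, and DESeq2 also gave 1. *Mertk* and *Lyz2* were higher in the mean of both treated groups, where 4.80% of all genes were, and DESeq2 gave 3. No gene was higher in NanoTLZ than in i.v. TLZ at this level, where 0.449% of all genes were, and DESeq2 fitted to all 9 tumors gave 0. Fitted to the 6 treated tumors alone, edgeR gave 6 genes and DESeq2 gave 7, and none had an adjusted p under 0.05. The shares of all genes given here are from edgeR on all 9 tumors. They are no background for the counts from DESeq2 or from the 6 treated tumors alone. None of the 36 genes was lower at an unadjusted p under 0.05 in any of the 4 comparisons, while 5.49%, 5.47%, 8.29% and 1.23% of all genes were lower after NanoTLZ, after i.v. TLZ, in both treated groups together and in NanoTLZ against i.v. TLZ.

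**Figure D1:**
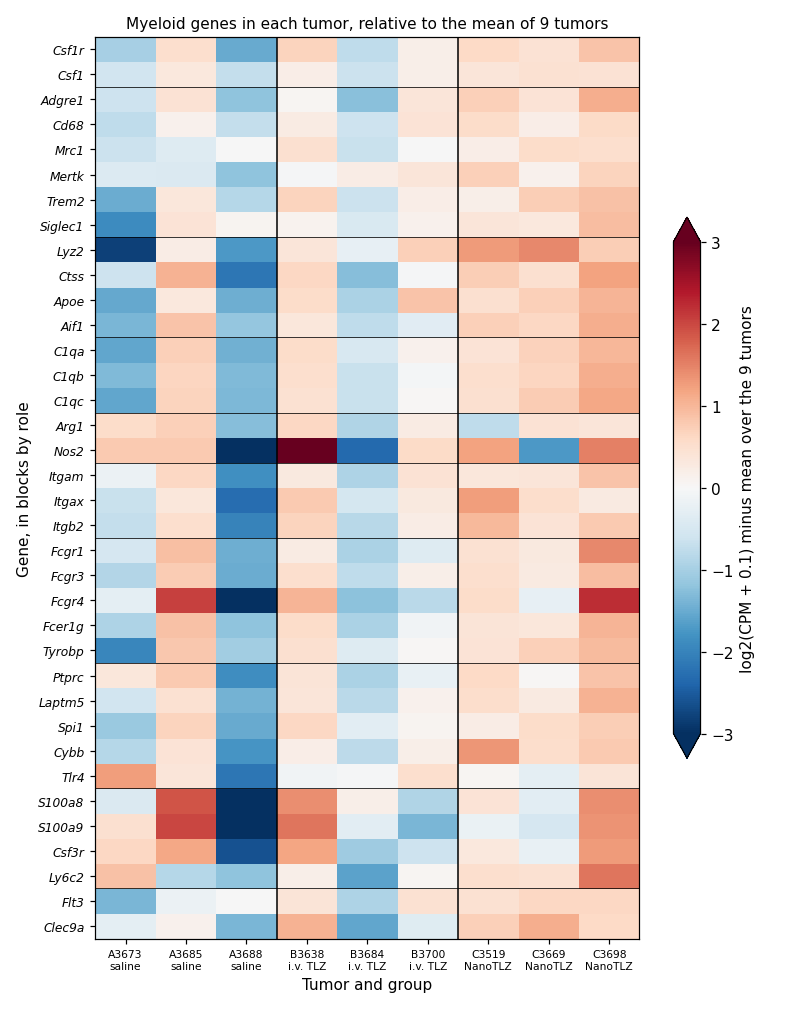
Level of 36 tested myeloid genes (rows, in blocks by role) in each of 9 tumors (columns, by group), as log2(CPM + 0.1) minus the mean of the gene over the tumors, with red above and blue below the mean. A3688 was the lowest tumor for 22 genes and C3698 the highest for 23, against 24.1% and 7.42% of all tested genes. Within the saline group A3685 was red where A3673 and A3688 were mostly blue.

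The tumors were ordered alike over most of the 36 genes. A3688 had the lowest level for 22 genes, A3673 for 10 and B3684 for 4. Over all tested genes these tumors were lowest for 24.1%, 15.5% and 14.7%. C3698 had the highest level for 23 genes, where it was highest for 7.42% of all tested genes. Saline was therefore not uniformly low, since saline tumor A3685 was among the 3 highest tumors for 20 genes while A3673 was among the 3 lowest for 27 and A3688 for 34. The i.v. TLZ group was split as well, with B3684 among the 3 lowest for 32 genes and B3638 among the 3 highest for 14. Shares of all tested genes among the 3 lowest or 3 highest are not given. Set against the range of the 3 NanoTLZ tumors, A3688 was below it for 36 of 36 genes, B3684 for 32, A3673 for 29, B3700 for 27, B3638 for 13 and A3685 for 10. Over all tested genes, each of these tumors was below the NanoTLZ range for 25.6% to 37.9% of genes. A3685 was within the NanoTLZ range for 23 of the 36 genes, and for 44.2% of all tested genes.

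The spread between tumors of a group was wide in saline and narrow in NanoTLZ. The median SD of log2(CPM + 0.1) over the 36 genes was 1.18 for saline tumors, 0.665 for i.v. TLZ tumors and 0.342 for NanoTLZ tumors, against 0.592, 0.467 and 0.302 over all tested genes. The SD of the NanoTLZ tumors was below that of the saline tumors for 36 of 36 genes, and this held for 77.9% of all genes. With 3 tumors per group an SD is itself poorly determined, and these orders were not tested.

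Removing 1 tumor showed how far the medians rested on single tumors. In each such fit the low-count filter was applied again, and *Ly6g* passed it without A3685 or without A3688, so that these values are over 37 genes. Without A3685 the median log2 fold change was 1.75 after NanoTLZ and 1.04 after i.v. TLZ, and 23 and 16 genes had an unadjusted p under 0.05. Without A3688 the medians were 0.72 and 0.03, with 4 and 0 genes. Without A3673 they were 0.71 and 0.14 over 36 genes, with 3 genes and 1 gene. No gene had an adjusted p under 0.05 in any of these fits. The share of all tested genes at an unadjusted p under 0.05 is not given for them. These counts therefore cannot be set against a background.

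Among the receptors that macrophages carry on their surface, *Mertk*, a receptor for dying cells on chromosome 2 (GRCm38 positions 128698956 to 128802894), gave the clearest separation. Its level was 10.6, 10.4 and 6.15 CPM in the saline tumors A3673, A3685 and A3688. It was 13.8, 16.7 and 18.4 CPM in the i.v. TLZ tumors B3638, B3684 and B3700, and 23.4, 15.6 and 22.6 CPM in the NanoTLZ tumors C3519, C3669 and C3698. All 6 treated tumors were thus above all 3 saline tumors, including those treated tumors in which other macrophage genes were low, and the treated groups overlapped with each other. *Mertk* was the only one of the 36 genes with this order (2.78%), a share close to the 2.81% of all tested genes that had it. The log2 fold change was 1.18 (SE 0.34, unadjusted p = 0.00643, adjusted p = 0.552 in edgeR) after NanoTLZ and 0.85 (SE 0.34, unadjusted p = 0.0330, adjusted p = 0.452) after i.v. TLZ. Between NanoTLZ and i.v. TLZ it was 0.33 with a 95% interval of -0.42 to 1.09.

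The other 5 surface and phagocytic receptors had higher group means after NanoTLZ, with more overlap. *Adgre1* encodes F4/80, a widely used marker of mouse macrophages, and measured 24.3, 50.7 and 16.2 CPM in saline, 39.2, 15.7 and 48.6 CPM in i.v. TLZ and 61.8, 49.9 and 80.4 CPM in NanoTLZ. A3685 was just above the lowest NanoTLZ tumor, and no i.v. TLZ tumor reached the NanoTLZ range. *Cd68* encodes a lysosomal glycoprotein of phagocytes and measured 27.1, 50.6 and 27.8 CPM in saline, 54.4, 29.6 and 61.0 CPM in i.v. TLZ and 67.4, 53.1 and 68.6 CPM in NanoTLZ. NanoTLZ lay above saline without overlap, and i.v. TLZ overlapped with both. *Mrc1*, the mannose receptor CD206, measured 18.7, 22.1 and 28.8 CPM in saline, 40.9, 18.3 and 28.7 CPM in i.v. TLZ and 33.5, 42.5 and 41.2 CPM in NanoTLZ. Unlike most of the genes, *Mrc1* was highest among saline tumors in A3688. *Trem2*, a lipid-sensing receptor, ranged from 15.5 CPM in A3673 to 80.1 CPM in C3698, and *Siglec1*, a sialic acid receptor, from 1.66 to 12.2 CPM in the same tumors. The log2 fold changes of these genes after NanoTLZ were 1.07 (SE 0.50) for *Adgre1*, 0.84 (SE 0.36) for *Cd68*, 0.75 (SE 0.34) for *Mrc1*, 1.10 (SE 0.49) for *Trem2* and 0.75 (SE 0.56) for *Siglec1*, with adjusted p between 0.552 and 0.670 in edgeR.

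The receptor *Csf1r* and its ligand *Csf1* were both lowest in A3688. *Csf1r* measured 116, 328 and 81.7 CPM in saline, 370.3, 137 and 262 CPM in i.v. TLZ and 348, 314 and 422 CPM in NanoTLZ, so A3685 fell inside the NanoTLZ range. Exons of *Csf1r* overlap those of *Hmgxb3* on the opposite strand, and whether counting used the strand is not given in the sources used here. *Csf1* is also made by fibroblasts and epithelial cells. It measured 115, 210.4 and 104 CPM in saline, 194, 108.5 and 191 CPM in i.v. TLZ and 219, 232 and 230.0 CPM in NanoTLZ. The 3 NanoTLZ tumors were above all 6 others, and *Csf1* had the narrowest range of the 36 genes, with 2.22-fold between the lowest and highest tumor. The log2 fold change after NanoTLZ was 1.05 (SE 0.53) for *Csf1r* and 0.66 (SE 0.34) for *Csf1*.

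The secreted and lysosomal products held the most RNA of the list, and *Lyz2* among them had the largest log2 fold change of the 36 genes after NanoTLZ. *Lyz2*, lysozyme M of macrophages and neutrophils on chromosome 10 (GRCm38 positions 117277331 to 117282321), measured 192, 1573 and 405.5 CPM in saline. It measured 1740, 1144 and 2211 CPM in i.v. TLZ and 3262, 3642 and 2260 CPM in NanoTLZ. The NanoTLZ tumors were above all the others, although the lowest of them was close to the highest i.v. TLZ tumor, and A3685 was well above the other saline tumors. The log2 fold change of *Lyz2* was 2.08 (SE 0.69, unadjusted p = 0.0127, adjusted p = 0.552 in edgeR) after NanoTLZ and 1.23 (SE 0.67, adjusted p = 0.538) after i.v. TLZ. Without A3685 these values were 3.35 and 2.51. *Apoe*, a lipid carrier made by macrophages and by other cells, measured 638, 2287 and 665 CPM in saline, 2709, 963 and 3341 CPM in i.v. TLZ and 2586, 3020 and 3739 CPM in NanoTLZ. NanoTLZ did not overlap with saline, but B3684 was close to the low saline tumors, and the log2 fold change after NanoTLZ was 1.38 (SE 0.61, adjusted p = 0.553). *Ctss*, a cathepsin for antigen processing, ranged from 65.9 CPM in A3688 to 689 CPM in C3698, with 0.87 (SE 0.71) after NanoTLZ and -0.01 (SE 0.71) after i.v. TLZ. *Aif1*, which encodes the macrophage protein IBA1, measured 8.01 to 45.1 CPM, and its 3 NanoTLZ tumors were above all 3 i.v. TLZ tumors, with a log2 difference of 1.01 (95% interval -0.27 to 2.29). Per kilobase of exon, *Lyz2* had the highest mean level over the 9 tumors (1387 CPM per kb), followed by *Apoe* (1037 CPM per kb) and *C1qa* (343 CPM per kb).

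The 3 C1q chains are encoded by neighboring genes on chromosome 4 (GRCm38 positions 136880129 to 136898803) and assemble into 1 protein that tags debris and antibody complexes. *C1qa* measured 103, 500 and 111 CPM in saline, 443, 218 and 335 CPM in i.v. TLZ and 404, 491 and 602 CPM in NanoTLZ. The saline group thus spanned nearly the whole range of the 9 tumors. *C1qb* and *C1qc*, whose promoters are shown above, followed *C1qa* closely. From tumor to tumor the ratio of *C1qa* to *C1qb* stayed between 0.953 and 1.29 and that of *C1qc* to *C1qb* between 0.756 and 0.966, while the 3 genes varied 5.32-fold to 6.57-fold. The log2 fold change after NanoTLZ was 1.07 (SE 0.59) for *C1qa*, 1.12 (SE 0.55) for *C1qb* and 1.19 (SE 0.58) for *C1qc*. After i.v. TLZ the values were 0.48, 0.35 and 0.38.

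**Figure D2:**
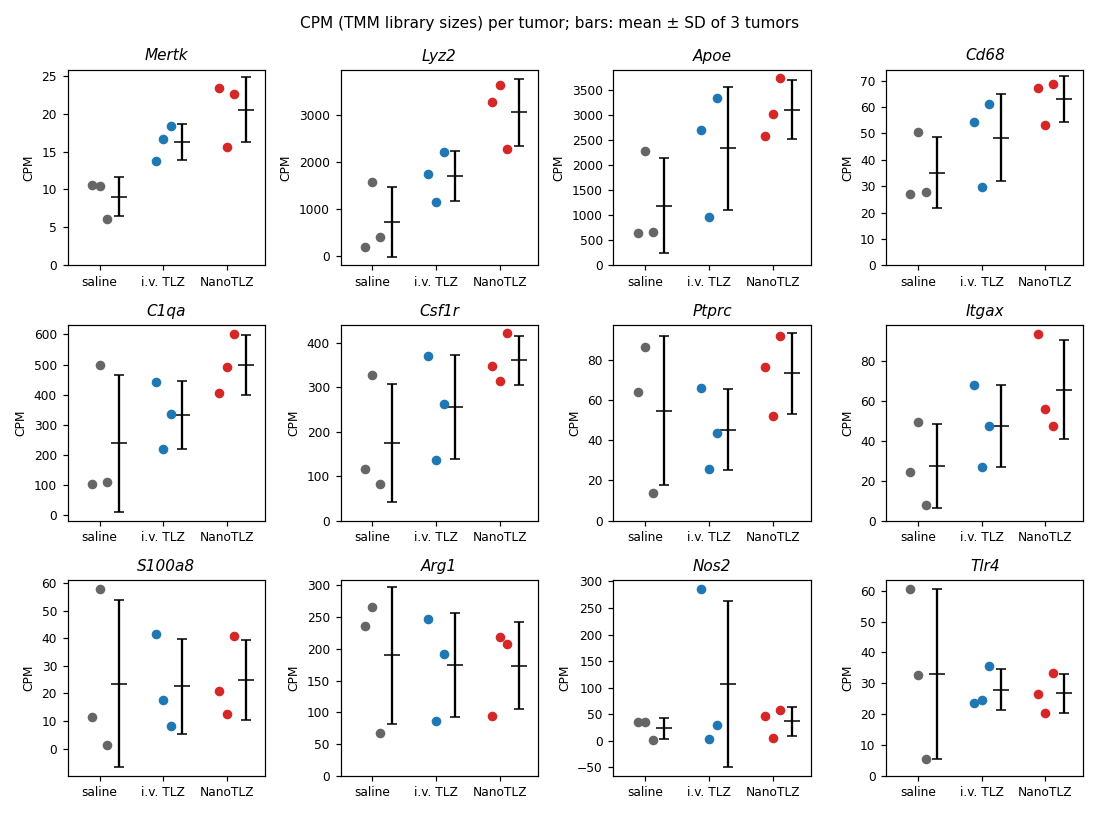
CPM of 12 myeloid genes in each tumor (points, 3 per group) with the mean and SD of the group to the right of the points (saline gray, i.v. TLZ blue, NanoTLZ red, linear axes). *Mertk* was at least 13.8 CPM in every treated tumor and at most 10.6 CPM in every saline tumor, whereas *S100a8*, *Arg1*, *Nos2* and *Tlr4* overlapped in all 3 groups.

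The integrins and Fc receptors were all lowest in A3688, while the highest tumor was C3698 or C3519 depending on the gene. *Itgax* encodes CD11c, found on dendritic cells and many tissue macrophages, and measured 24.3, 49.4 and 7.89 CPM in saline, 67.7, 27.0 and 47.6 CPM in i.v. TLZ and 93.6, 55.8 and 47.2 CPM in NanoTLZ. Saline tumor A3685 exceeded the lowest NanoTLZ tumor, and the log2 fold change was 1.27 (SE 0.60) after NanoTLZ and 0.80 (SE 0.59) after i.v. TLZ. *Itgam*, which encodes CD11b, ranged from 13.9 to 91.2 CPM, and *Itgb2*, which encodes the beta chain paired with both, from 15.9 to 126 CPM. Their log2 fold changes after NanoTLZ were 0.70 (SE 0.55) and 1.14 (SE 0.57). Of the Fc receptors, which bind antibodies, *Fcgr1* measured 13.7, 36.6 and 6.97 CPM in saline, 23.2, 10.1 and 15.0 CPM in i.v. TLZ and 26.8, 23.9 and 53.4 CPM in NanoTLZ. All NanoTLZ tumors were above all i.v. TLZ tumors, and the log2 difference of 1.11 (95% interval -0.23 to 2.44) had an unadjusted p of 0.0941. *Fcgr4* varied 50.9-fold between tumors and was high in A3685 (29.3 CPM) and C3698 (32.7 CPM) alike. *Fcgr3* and the signaling adaptors *Fcer1g* and *Tyrobp* had log2 fold changes of 0.81, 0.71 and 0.97 after NanoTLZ.

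*Ptprc*, which encodes CD45 on all leukocytes, did not differ beyond its spread in any comparison. It measured 64.3, 86.4 and 13.8 CPM in saline, 66.1, 25.9 and 43.4 CPM in i.v. TLZ and 76.6, 51.9 and 91.7 CPM in NanoTLZ. The log2 fold change was 0.42 (95% interval -0.87 to 1.72) after NanoTLZ and -0.28 (95% interval -1.57 to 1.01) after i.v. TLZ. A3673 held the median *Ptprc* level of the 9 tumors, whereas it was among the 3 lowest tumors for 27 of the 36 genes. *Cybb*, a subunit of the oxidase that makes superoxide in phagocytes, measured 54.3, 131 and 28.8 CPM in saline, 114.5, 57.3 and 112 CPM in i.v. TLZ and 248, 143 and 170.1 CPM in NanoTLZ. The 3 NanoTLZ tumors were above all 6 others. Its log2 fold change after NanoTLZ was 1.39 (SE 0.52, adjusted p = 0.552), and the difference between the treatments was 0.99 (95% interval -0.16 to 2.13), with the smallest unadjusted p of the 36 genes in that comparison (0.0854, adjusted p = 0.9999 in edgeR). *Spi1* and *Laptm5*, a lysosomal protein of leukocytes, had log2 fold changes of 0.84 (SE 0.53) and 0.96 (SE 0.48) after NanoTLZ. *Tlr4*, the receptor for bacterial lipopolysaccharide, was highest in saline tumor A3673 (60.7 CPM) and lowest in A3688 (5.55 CPM), and its log2 fold change after NanoTLZ was -0.30 (SE 0.64).

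The arginine enzymes, often used as labels of opposed macrophage states, overlapped between all groups, and both were lowest in A3688. *Arg1*, arginase, measured 236, 266 and 67.0 CPM in saline, 247, 86.1 and 192 CPM in i.v. TLZ and 95.02, 219 and 208 CPM in NanoTLZ. All groups overlapped, and the log2 fold change after NanoTLZ was -0.13 (95% interval -1.36 to 1.11). *Nos2*, inducible nitric oxide synthase, measured 34.8, 34.8 and 0.688 CPM in saline, 286, 3.88 and 29.9 CPM in i.v. TLZ and 46.6, 6.003 and 57.6 CPM in NanoTLZ. It varied 415.5-fold between tumors, the widest range among the myeloid genes described here other than *Ly6g*, *Flt3* and *Clec9a*, for which no ratio was computed because of their low counts, and the i.v. TLZ mean rested on B3638. Its log2 fold change was 2.19 (95% interval -1.14 to 5.51) after i.v. TLZ and 0.65 (95% interval -2.56 to 3.86) after NanoTLZ. Both enzymes are also made by cells other than macrophages.

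The neutrophil and monocyte genes overlapped widely between saline and each treated group. Of the 4 tested, 3 had a log2 fold change above 0 after NanoTLZ (median 0.14) and none after i.v. TLZ (median -0.20), and none had an unadjusted p under 0.05. *S100a8* measured 11.5, 57.9 and 1.19 CPM in saline, 41.6, 17.8 and 8.33 CPM in i.v. TLZ and 20.9, 12.5 and 41.0 CPM in NanoTLZ, and the highest and the lowest tumor were both in saline. Its log2 fold change after NanoTLZ was 0.08 with a 95% interval of -2.24 to 2.39, so that changes of several-fold in either direction were not detectable with these tumors. *S100a9* and *Csf3r*, the receptor for the neutrophil growth factor G-CSF, had the same extremes among saline tumors, with 63.1 and 76.1 CPM in A3685 and 1.79 and 5.51 CPM in A3688. Their log2 fold changes were -0.42 (SE 1.06) and 0.21 (SE 0.84) after NanoTLZ, and -0.40 (SE 1.06) and -0.21 (SE 0.84) after i.v. TLZ. *Ly6g*, the defining surface antigen of mouse neutrophils, had 18, 6 and 2 counts in saline, 12, 5 and 8 in i.v. TLZ and 4, 0 and 4 in NanoTLZ, where 3 counts were taken as the floor. *Ly6c2*, a monocyte antigen, ranged from 0.328 to 3.83 CPM. *Ly6g* and *Ly6c2* belong to a family of near-identical neighbors, so reads may have been split among them.

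**Figure D3:**
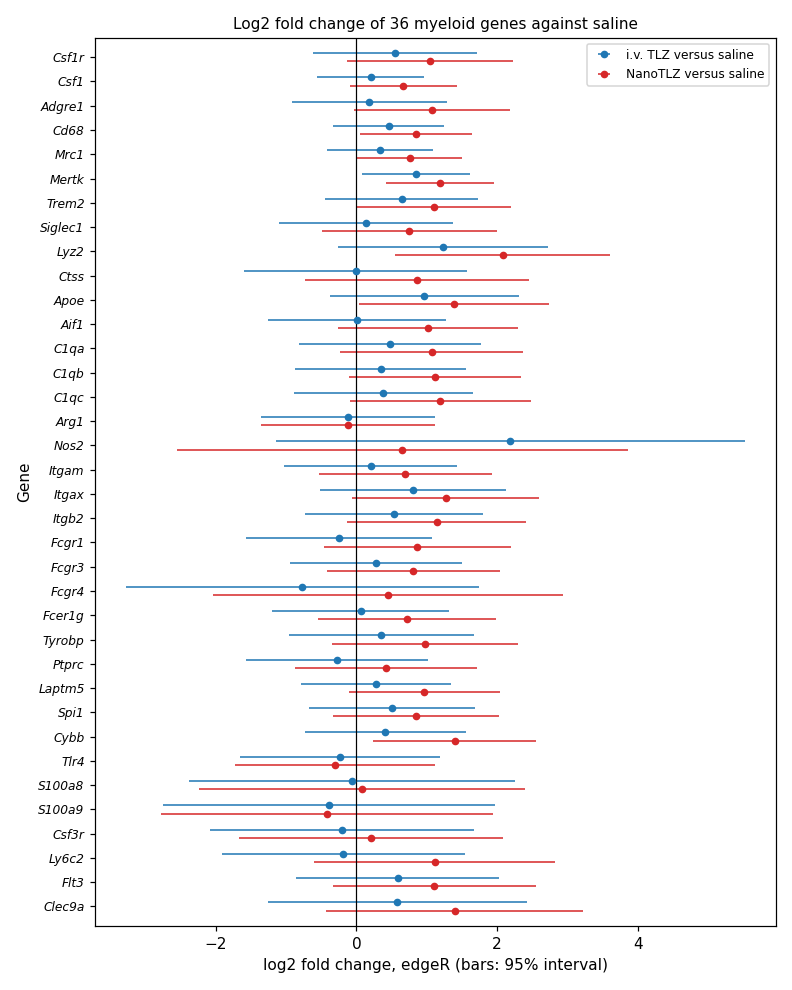
Log2 fold change against saline for 36 myeloid genes (points) with 95% intervals from edgeR (bars), i.v. TLZ in blue and NanoTLZ in red, both set against the same 3 saline tumors. After NanoTLZ 33 of 36 points lie above 0, and the intervals of 7 genes exclude 0 before adjustment for multiple tests.

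The dendritic cell genes *Flt3* and *Clec9a* were measured by few reads. *Flt3* had 3, 11 and 13 counts in saline, 17, 5 and 16 in i.v. TLZ and 18, 18 and 19 in NanoTLZ. *Clec9a* had 7, 12 and 3 counts in saline, 24, 2 and 7 in i.v. TLZ and 19, 22 and 16 in NanoTLZ, and its exons overlap those of *Clec1b* on the same strand. For both genes the 3 NanoTLZ tumors were above the 3 saline tumors in CPM. The log2 fold change after NanoTLZ was 1.11 (SE 0.65, adjusted p = 0.605) for *Flt3* and 1.39 (SE 0.82, adjusted p = 0.608) for *Clec9a*.

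The number of genes whose groups did not overlap was also counted. Most of the genes ordered the tumors alike, so these counts largely repeat that order and the genes are not independent. NanoTLZ was above saline in all 3 tumors for 9 of 36 genes, where 7.82% of all tested genes had this order. These were *Csf1*, *Cd68*, *Mrc1*, *Mertk*, *Lyz2*, *Apoe*, *Cybb*, *Flt3* and *Clec9a*. NanoTLZ was above i.v. TLZ for 11 of 36 genes, where 3.20% of all genes were. These were *Csf1*, *Adgre1*, *Siglec1*, *Lyz2*, *Aif1*, *C1qb*, *C1qc*, *Fcgr1*, *Cybb*, *Ly6c2* and *Flt3*. The i.v. TLZ tumors were above saline for 1 gene, *Mertk*, where 5.99% of all genes were. The smallest p that an exact two-sided permutation test of 3 against 3 tumors can give is 0.1.

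Ratios within a tumor compare genes without the total amount of myeloid RNA. *Itgax* relative to *Ptprc* was 0.379, 0.572 and 0.573 in the saline tumors, 1.02, 1.04 and 1.10 in i.v. TLZ and 1.22, 1.076 and 0.515 in NanoTLZ. Of the 6 treated tumors 5 were above all saline tumors, and C3698 lay among the saline tumors. *Itgam* relative to *Ptprc* overlapped, with 0.688 to 1.007 in saline, 0.926 to 1.56 in i.v. TLZ and 0.830 to 1.24 in NanoTLZ. The T cell gene *Cd3e* relative to *Ptprc* was 0.00667 to 0.0248 in saline, 0.0127 to 0.0594 in i.v. TLZ and 0.0371 to 0.0576 in NanoTLZ. *Cd3e* had only 2 counts in A3688. *Mrc1* relative to *Adgre1* was 0.435 to 1.77 in saline and thus covered the treated range of 0.513 to 1.16. *Arg1* relative to *Adgre1* was 4.12 to 9.71 in saline, 3.94 to 6.29 in i.v. TLZ and 1.54 to 4.38 in NanoTLZ. *Adgre1* relative to *Ptprc* was 0.379 to 1.18 in saline and 0.807 to 0.962 in NanoTLZ. *S100a8* relative to *Ptprc* was 0.0867 in A3688 and 0.686 in B3684, both tumors with little myeloid RNA.

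**Figure D4:**
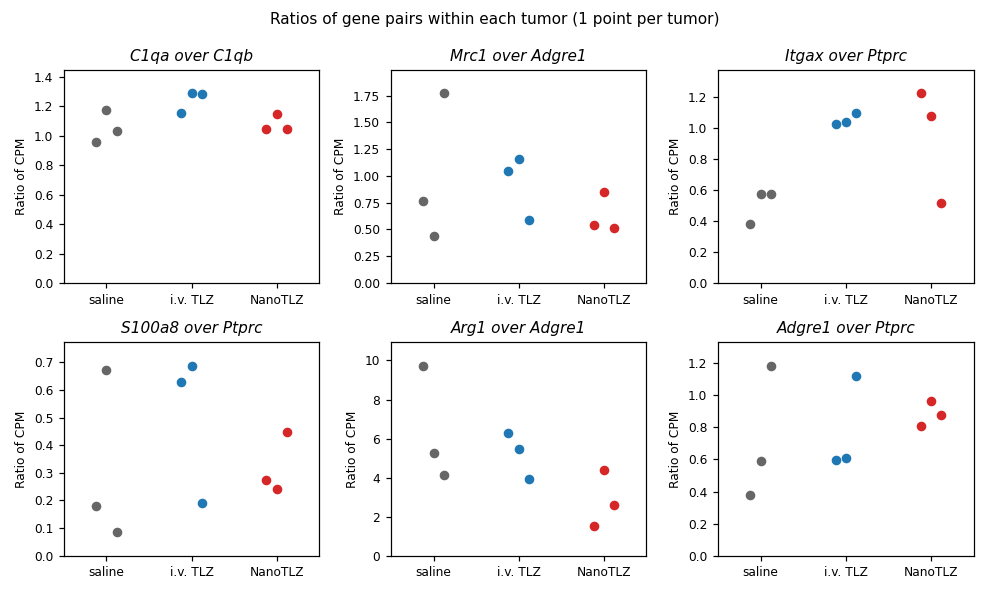
Ratio of the CPM of 6 pairs of genes within each tumor (1 point per tumor, saline gray, i.v. TLZ blue, NanoTLZ red, linear axes from 0). The ratio of *C1qa* to *C1qb* stayed within 0.953 to 1.29, whereas *Itgax* over *Ptprc* was at most 0.573 in saline and above 1 in 5 of 6 treated tumors.

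Longer lists of genes linked to the same cell types were counted in the same way. Not all of these genes are specific to those cells. In RNA of whole tumors a change in such a gene cannot be assigned to a cell type. Of 34 further macrophage and monocyte genes tested, 29 had a log2 fold change above 0 after NanoTLZ (median 0.80) and 24 after i.v. TLZ (median 0.20), and none passed the adjusted test. At an unadjusted p under 0.05, 4 were higher (*Gpnmb*, *Il34*, *Csf2ra* and *Axl*) and 1 lower (*Cd163*) after NanoTLZ, and 3 were higher (*Maf*, *Gpnmb* and *Il34*) after i.v. TLZ. Of 17 further neutrophil genes, 10 were above 0 after NanoTLZ (median 0.36) and 12 after i.v. TLZ (median 0.64). Of 13 further dendritic cell genes, 8 were above 0 after NanoTLZ (median 0.69) and 6 after i.v. TLZ (median -0.03). In edgeR none of the neutrophil and dendritic cell genes passed the adjusted test. At an unadjusted p under 0.05, the neutrophil gene *Clec4d* was higher after both treatments, as were the dendritic cell genes *Zbtb46*, *Ccr7* and *Ccl22*, while *Tlr3* was lower after both. In the saline tumors *Ccr7* had 4, 14 and 6 counts and *Ccl22* 3, 7 and 11, at or near the floor of 3 counts. Over all tested genes, 3.51% were higher and 5.49% lower by this measure after NanoTLZ, and 4.91% and 5.47% after i.v. TLZ. The genes named from these longer lists were chosen after their p-values were seen. The granule genes *Camp*, *Elane* and *Mpo* and the mast cell gene *Fcer1a*, chosen here for their low values, did not pass the low-count filter, and *Fcer1a* had 0 counts in every tumor.

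Markers of other cell types varied between the same tumors. The sum of 10 T and NK cell markers was 6.52 to 24.2 CPM in saline, 8.31 to 31.4 CPM in i.v. TLZ and 20.5 to 49.1 CPM in NanoTLZ, and 8 of 9 tested genes had a fold change above 0 after NanoTLZ. The sum of 7 B and plasma cell markers was 1.66 to 5.73 CPM in saline, 2.57 to 29.5 CPM in i.v. TLZ and 3.49 to 44.5 CPM in NanoTLZ. The sum of 5 endothelial markers was 58.6 to 156 CPM in saline and 151 to 196 CPM in NanoTLZ, with A3688 and B3684 the lowest of all 9 tumors. The sum of 7 epithelial markers was 4362 to 8375 CPM in saline and 3586 to 5236 CPM in NanoTLZ, and it was highest in A3673 and lowest in C3698. The sum of 7 fibroblast markers was 1056 to 1740 CPM in saline, 864 to 5075 CPM in i.v. TLZ and 1432 to 2665 CPM in NanoTLZ. The sum of 6 proliferation markers was 587 to 1905 CPM in saline and 303 to 593 CPM in the treated tumors. The sum of 5 red blood cell markers was 23.2 to 59.5 CPM in saline, 3.14 to 22.2 CPM in i.v. TLZ and 1.40 to 8.69 CPM in NanoTLZ, so every treated tumor was below every saline tumor. Of all these marker genes, only *Myh4*, a myosin of fast skeletal muscle, passed the adjusted test, in the mean of both treated groups against saline (adjusted p = 0.0207 in edgeR). It measured 6.01, 45.9 and 213 CPM in saline and at most 0.216 CPM in the treated tumors. The part of these cell types in the myeloid values was not tested.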

How the data were processed

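Total RNA was isolated from 9 tumors and sequenced. The deposited values are raw counts of reads per gene and tumor, which the authors had not normalized. Submitters' processing notes name TopHat2, DESeq2 and mm10, and the counting program and strand setting are not given in the sources used here. All 9 columns were used, 785 identifiers had no symbol in GENCODE M21 (GRCm38), and no 2 columns were identical. Groups came from the treatment labels, which give no batch.

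Counts were filtered with filterByExpr (minimum count 10, minimum total 15), scaled by TMM and tested with glmQLFit and glmQLFTest in edgeR 4.0.16 (R 4.3.3), 1 coefficient per group over all 9 tumors. P-values were adjusted by Benjamini-Hochberg over 15821 genes, and genes under 0.05 were called. Intervals are 95%. The method was tested on simulated counts with known changes in NanoTLZ against saline. It called 30 of 100 genes changed 4-fold and 69 of 100 changed 8-fold, along with 10 unchanged genes. Changes of 4-fold were thus mostly missed in the simulation. Its changed genes were drawn from all tested genes, each with the same dispersion in every group. The myeloid genes spread more widely than most in saline, so these rates need not hold for them. Alternatives were DESeq2 1.42.0, edgeR on 2 groups, other scalings and filters, robust dispersion and each tumor left out. Figures used Python 3.11.15 and matplotlib 3.10.9.

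The members and lists were chosen with earlier results of these data known. All 37 members were named, and of other lists only called genes, apart from *Cd3e* in a planned ratio and those said to be chosen for their values. The ratios among the C1q genes were chosen after seeing the data. Counts of 3 or fewer, taken as the floor, and other depth limits cover counting error only.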

Additional observations from a re-analysis of the deposited data

How the results depend on the processing

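No myeloid gene had an adjusted p under 0.05 under any of the 17 alternatives (15 for the mean of both treated groups). Across the alternatives that kept all tumors, the median log2 fold change of the members was 0.87 to 0.96 for NanoTLZ against saline, 0.27 to 0.34 for i.v. TLZ against saline, 0.53 to 0.58 for NanoTLZ against i.v. TLZ and 0.62 to 0.67 for the mean of both treated groups. With 1 tumor left out these medians ranged from 0.71 to 1.75, from 0.03 to 1.04, from 0.29 to 0.89 and from 0.34 to 1.45. The highest value of the first, second and last came without saline tumor A3685, and the lowest of the second and last without saline tumor A3688. Genes with all remaining treated tumors above all remaining saline tumors numbered 1 to 15 with 1 tumor left out. They numbered 15 without A3685 and 5 without i.v. TLZ tumor B3684, when 18.9% and 8.80% of all tested genes did not overlap in either direction. Genes at an unadjusted p under 0.05 numbered 3 to 23 for NanoTLZ against saline, 0 to 16 for i.v. TLZ against saline, 0 to 4 between the treatments and 1 to 22 for the mean of both, and on the 2 treated groups alone edgeR gave 6 and DESeq2 gave 7 between the treatments. The share of all tested genes at this level is not given for these fits, so these counts have no background beside them. Between 33 and 37 of the genes had a value, since filters differed. The sign of a single gene's fold change differed from the reported one in 13 of 609 values for NanoTLZ against saline, 41 of 608 for i.v. TLZ against saline, 21 of 609 between the treatments and 22 of 537 for the mean of both, none of them with an unadjusted p under 0.05. No paired analysis was done, since the labels give no pairing between tumors of different groups. At this depth *Ly6g*, *Flt3* and *Clec9a* were near the floor of 3 counts in some tumors.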
